A study of Mus musculus with 6 samples.

Results

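The genes of the DNA replication machinery were described here in primary mouse chondrocytes after silencing of Pkm2. They were the rows that the deposited table assigns to the DNA replication pathway, 34 of 55416 genes, and all 34 had enough reads to be tested. The rule used only the pathway column and no measured value. RNA sequencing covered 6 libraries, 3 from cells given a control siRNA (siNC) and 3 from cells given an siRNA against Pkm2 (siPkm2), and the series asked what PKM2, a pyruvate kinase of glycolysis, does in chondrocytes. Both groups were cultured in DMEM/F12 with 10% FBS and received no other labelled treatment. The labels name the source as knee joints of newborn mice and give siNC the genotype WT. For the siPkm2 libraries 1, 2 and 3 the genotype labels read PKM2, PKM3 and PKM4 knockdown, whereas all 3 titles read siPKM2, so all 3 were taken as siPkm2. The study's methods describe its own cultures as articular chondrocytes of adult mice transfected with siRNA. No source used here gives, for these libraries, the strain, the time of harvest or which of the siRNAs was used.

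DNA replication starts when the MCM complex, a ring of Mcm2 to Mcm7 loaded at origins, is switched on and unwinds the double helix. DNA polymerase alpha with primase lays down primers, polymerase epsilon copies the leading strand and polymerase delta the lagging strand. The replication factor C loader opens the PCNA clamp around the DNA to hold the polymerases in place, RPA coats the exposed single strands, and Fen1, Dna2, Lig1 and the RNase H enzymes turn Okazaki fragments into one strand. These genes are transcribed mostly in dividing cells, and in cartilage it is the proliferating chondrocytes that use them.

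Total counts per library ranged from 22316996 to 25691029. The targeted gene Pkm had 1654, 2209 and 1293 TPM (a transcript level corrected for gene length and library size) in siNC replicates 1 to 3 and 245, 428 and 231 TPM in siPkm2. All siPkm2 libraries lay below all siNC libraries, although the counts do not separate the PKM1 and PKM2 transcripts. Chondrocyte markers were abundant in every library, with 12 markers summing to 17463 TPM or more in replicates 1 and 3 and to 4429 (siNC) and 5935 TPM (siPkm2) in replicate 2. Replicate 2 of both groups stood apart from the rest along the first principal component of all genes. Osteoblast markers summed to 4054, 14472 and 3664 TPM in siNC and to 2149, 5512 and 1609 TPM in siPkm2. This sum was lower in siPkm2 at each number, and most of the 14472 TPM was Spp1. Macrophage markers summed to 119 and 88.2 TPM in the replicate 2 libraries and to 11.9 to 27.1 TPM in the others, with Cd68 the largest of them in replicate 2, while 6 of the 10 markers, among them Ptprc and Adgre1, were under 1 TPM in every library. Endothelial markers summed to at most 18.7 TPM and muscle markers to at most 13.6 TPM, both sums lower in siPkm2 at each number. Among the muscle markers Acta1 and Tnnt3 were lower at each number, whereas Des was higher at each number. Synovial fibroblast markers summed to 149.8, 417 and 215 TPM in siNC and to 282, 519 and 398 TPM in siPkm2. That sum was higher at each number, although Thy1 and Pdgfra among these markers were lower at each number. The part of other cells in the results below was not tested. In bulk RNA a smaller share of replicating cells and less transcript per cell cannot be told apart.

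The replication genes as a group showed no common direction after Pkm2 silencing. Of the 34 genes, 15 had a higher and 19 a lower fitted level in siPkm2, with a median log2 fold change of -0.04 against -0.02 over all 15269 genes tested. Individual log2 fold changes ran from -0.52 for Rfc4 to 0.94 for Fen1. The summed level of the 34 genes was 1129, 950.1 and 927 TPM in siNC and 1102, 986 and 923 TPM in siPkm2, so the groups overlapped and replicate 1 was the highest library of each. Without siNC replicate 1 the median moved to 0.18 and the number of genes with a lower level to 10.

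In edgeR's quasi-likelihood test without a replicate block, no replication gene passed an adjusted p of 0.05, and 0% of all genes did. At an unadjusted p under 0.05, 3 of them passed (Fen1, Pole3 and Pole), 8.82% of the 34 genes against 17.6% of all genes. Libraries that shared a number deviated together, so the replicate number was also fitted as a block. At an unadjusted p under 0.05, 10 of the 34 genes then passed, against 6199 of all 15269 genes (40.6%). At an adjusted p under 0.05, 5 genes passed with the block, 14.7% of the group against 23.1% of all genes. Fen1, Pole3 and Mcm3 rose, against 12.3% of all genes that rose, and Pold2 and Pole fell, against 10.8% of all genes that fell. None of the 5 changed by more than 2-fold, while 5.83% of all genes passed with such a change. DESeq2 without the block called Fen1 alone, against 5.38% of all genes. The calls with the block depended on which libraries were kept. With pair 1 or pair 3 left out no replication gene passed (0% of all genes), and with pair 2 left out 9 did (39.1% of all genes), the same 5 together with Pola1, Prim1, Rfc4 and Rnaseh2b, all lower. The labels do not say whether libraries of a group came from separate cultures or mice, so these p-values measure only the spread between these libraries.

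For most of the 34 genes a change of 2-fold or more was bounded, as far as the spread between these libraries goes. Without the block, the 95% interval of the fold change lay within 2-fold in either direction for 26 of the 34 genes. With the block it did for 33, Fen1 being the exception. Over all 15269 genes tested, it did for 7382 without and 10034 with the block. Counts scaled to library size (CPM) did not overlap between the groups for 4 genes, 11.8% of the 34 against 24.3% of all genes. These were Fen1 and Pole3, higher in siPkm2 (12% of all genes), and Pold2 and Pole, lower (12.3%). In all 3 pairs the ratio was above 1 for 10 genes (30.5% of all genes) and below 1 for 11 (30.6%), and the pairs differed in sign for 13. The median log2 ratio of the group was -0.05, 0.15 and -0.03 in pairs 1, 2 and 3.

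**Figure D1:**
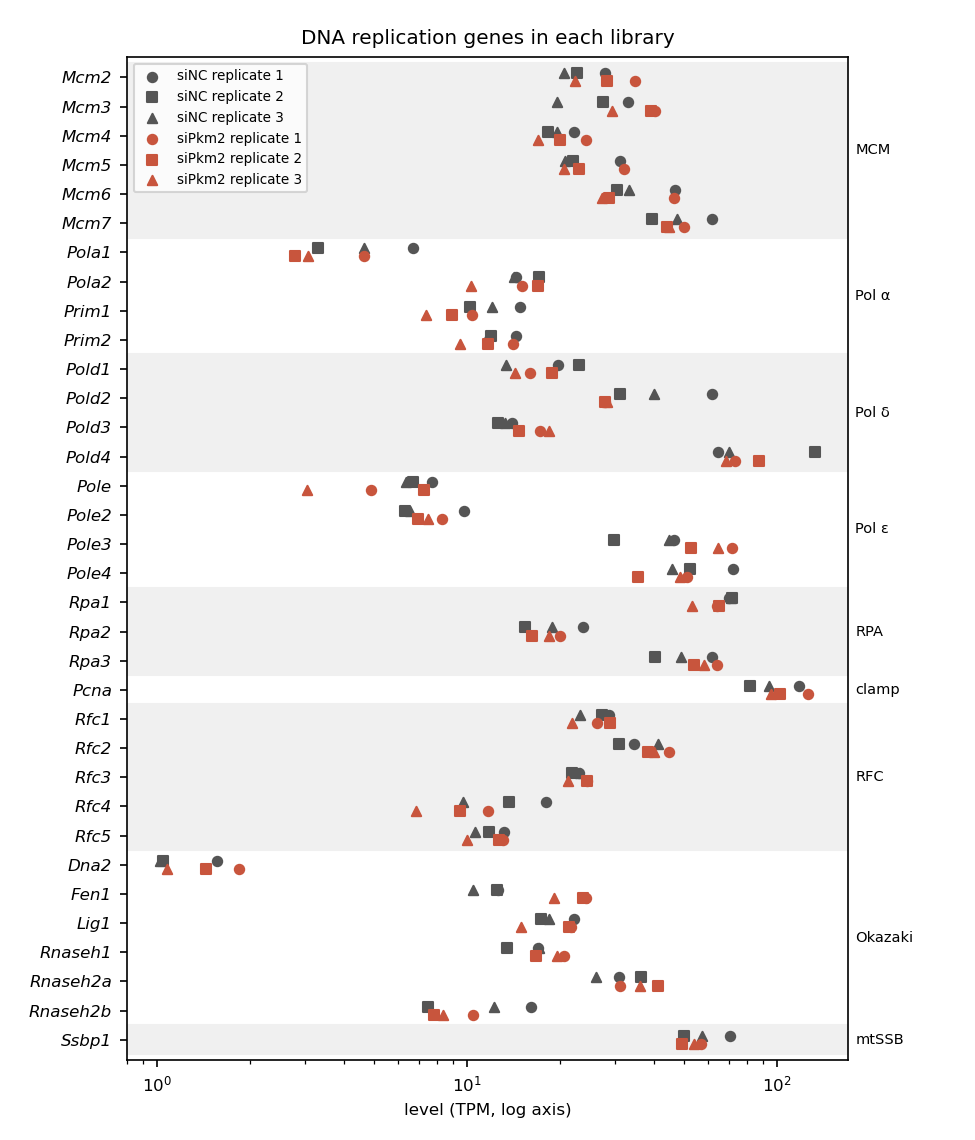
Level of each of the 34 replication genes in TPM on a log axis, grouped by role, with 1 point per library (grey siNC, red siPkm2, shapes for replicate number). Pcna was the most and Dna2 the least abundant gene. The red points lay to the right of all grey points for Fen1, Pole3 and Pold3, and to the left for Pold2 and Rpa1.

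**Figure D2:**
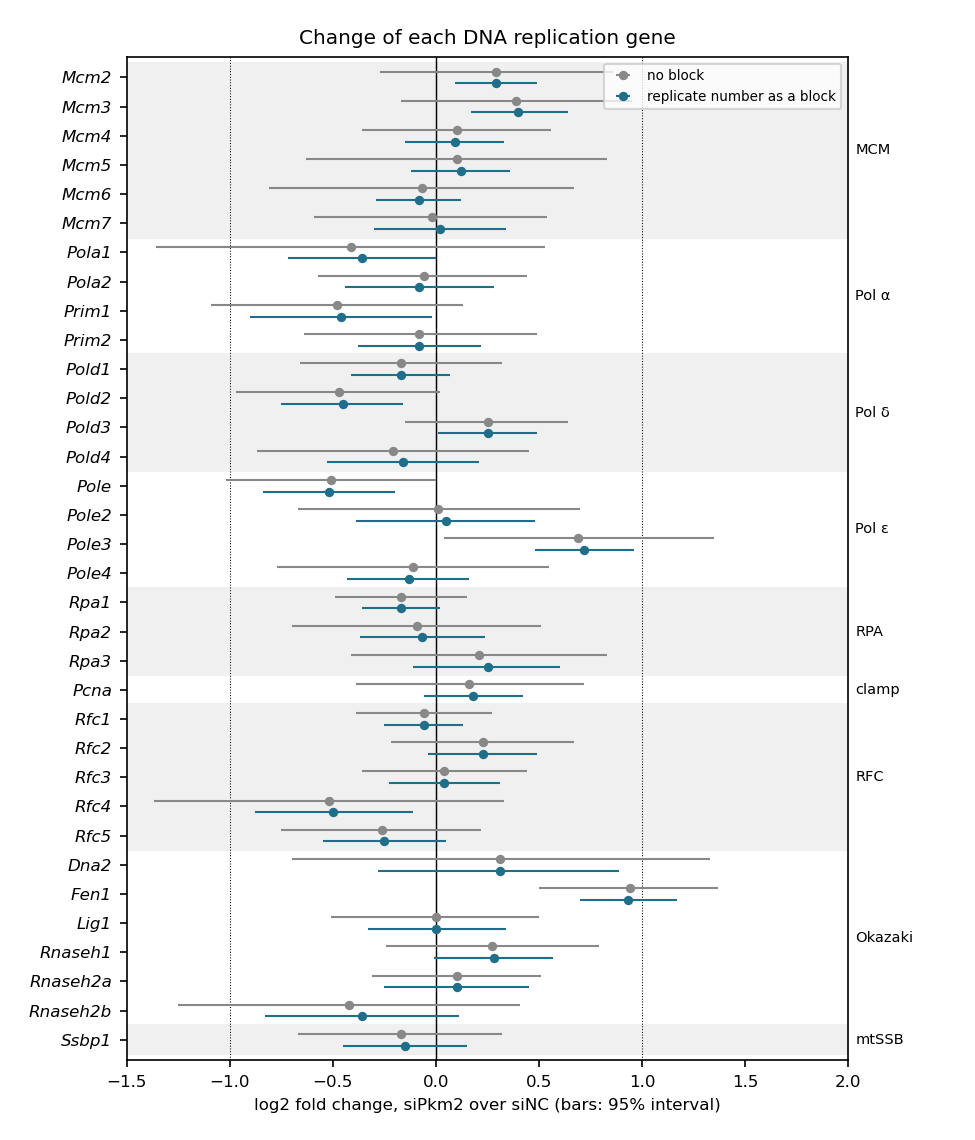
Log2 fold change of each replication gene, siPkm2 over siNC, from edgeR without the block (grey) and with the replicate number as a block (blue), with 95% intervals and dotted lines at a 2-fold change. Points lay on both sides of 0, and with the block only the interval of Fen1 crossed a dotted line.

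Levels differed widely between the parts of the machinery. Pcna was the most abundant of the genes with a mean over the 6 libraries of 103 TPM, followed by Pold4 at 82.5 TPM and Rpa1 at 65.7 TPM. The catalytic subunits of polymerase epsilon (Pole) and alpha (Pola1) averaged 5.99 and 4.2 TPM, and the nuclease and helicase Dna2 was lowest at 1.33 TPM, with estimated counts of 44 to 92. Within a single gene the highest library exceeded the lowest by 1.15-fold for Rfc3 and by 2.63-fold for Rfc4. Libraries of the same number also deviated together within these 34 genes. Their deviations from the group means correlated across genes at 0.64, 0.73 and 0.57 for libraries of the same number. Every other combination had 0.01 or less. Deviations within a group cancel for each gene, so positive values for equal numbers in part force the others down. This is a description over genes that are not independent.

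Of the 6 MCM helicase genes, Mcm3 alone passed with the block (23.1% of all genes). Summed over Mcm2 to Mcm7, siNC had 222, 160.2 and 161 TPM and siPkm2 228, 183 and 161 TPM. Replicate 1 was the highest library of its group for each of the 6 genes, and the groups overlapped. The median log2 fold change of the 6 genes was 0.10, with 4 genes higher and 2 lower.

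Mcm3, on chr1:20802968-20820312 of GRCm38 (minus strand), is the ring subunit that contacts the loading proteins at origins. Its level was 33.0, 27.4 and 19.6 TPM in siNC and 40.3, 39.1 and 29.4 TPM in siPkm2. Every siPkm2 library was above the siNC library of its number, but the lowest siPkm2 library was below the highest siNC library. Its log2 fold change was 0.39 ± 0.23 (SE, n = 3 per group, edgeR adjusted p = 0.438) without the block and 0.40 ± 0.09 with it (edgeR adjusted p = 0.0358), and it ranged from 0.25 without siPkm2 replicate 1 to 0.63 without siNC replicate 1 when single libraries were left out. Mcm2, the subunit that also carries histones at the fork, had 27.8, 22.6 and 20.6 TPM in siNC and 34.7, 28.2 and 22.4 TPM in siPkm2. It too was higher in every pair with overlapping groups, and its log2 fold change of 0.29 missed the threshold with the block (edgeR adjusted p = 0.0562, 0.568 without).

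The other ring subunits had smaller differences. Mcm4, which with Mcm6 and Mcm7 forms a subcomplex that unwinds DNA on its own, had 22.2, 18.3 and 19.5 TPM in siNC and 24.1, 19.9 and 17.0 TPM in siPkm2. Mcm5 had 31.0, 22.0 and 20.7 TPM in siNC and 32.0, 23.0 and 20.5 TPM in siPkm2. For both, pair 2 was higher in siPkm2 and the groups overlapped almost completely. Mcm6 had 46.8, 30.5 and 33.2 TPM in siNC and 46.6, 28.6 and 27.2 TPM in siPkm2. Mcm7, the most abundant of the 6 in every library, had 61.6, 39.4 and 47.5 TPM in siNC and 50.2, 44.1 and 44.7 TPM in siPkm2. In CPM, Mcm6 was lower in siPkm2 at each number by at most 0.20 on the log2 scale, with a larger difference in TPM in pair 3. Mcm7 moved down in pair 1 and up in pair 2. The log2 fold changes of Mcm4, Mcm5, Mcm6 and Mcm7 were 0.10, 0.10, -0.07 and -0.02, the last turning to 0.02 with the block, with edgeR adjusted p from 0.839 to 0.974 without it. For each of these genes a 2-fold change in either direction lay outside the 95% interval.

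Promoters of replication genes often carry short elements recognised by the E2F factors, which switch on genes of the S phase. RefSeq promoter entries on GRCm38.p6, 250 bases before to 50 bases after a start, were found for 28 of the 34 genes, and were searched on both strands for the 8-base strings TTTCCCGC, TTTGGCGC, TTTCGCGC and TTTGCCGC, matches being allowed to overlap. At least 1 of the strings was present for 11 of the 28 genes (39.3%), against 704 of 27025 genes with an entry (2.6%). In the MCM group it was present for Mcm3, Mcm5, Mcm6 and Mcm7 and not for Mcm2, and no entry was used for Mcm4. A match was thus found in 4 of the 5 MCM genes with an entry, but the string was not the same in all 4. The 30-base windows below mark 1 match for each of the 4, with the match or its reverse complement in capitals. In the Mcm5 window another match, the reverse complement of TTTGGCGC, overlaps the marked one and is not marked itself. All windows read 5′ to 3′ on the strand of the gene:
Mcm3 (chr1:20820275-20820304, minus strand): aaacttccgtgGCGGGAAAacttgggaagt
Mcm5 (chr8:75109345-75109374, plus strand): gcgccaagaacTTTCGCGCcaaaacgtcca
Mcm6 (chr1:128359734-128359763, minus strand): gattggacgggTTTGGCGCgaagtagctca
Mcm7 (chr5:138171849-138171878, minus strand): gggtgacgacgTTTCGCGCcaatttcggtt
Their log2 fold changes with the block were 0.40 for Mcm3, which passed, and 0.12, -0.08 and 0.02 for Mcm5, Mcm6 and Mcm7, which did not, with no test of the differences between them. Among the other 4 genes that passed with the block, Fen1, Pole3 and Pold2 had none of the strings in the window searched, and no entry was used for Pole. A match is a string of letters and was not tested as a binding site.

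Of the 12 polymerase subunits, 9 had a fitted level below and 3 above the control level in the fit without the block (51.9% of all genes were below), with a median log2 fold change of -0.14. Without siNC replicate 1 this became 6 below and 6 above. With the block 3 of the 12 passed, Pole3 upward and Pold2 and Pole downward, against 23.1% of all genes. In polymerase alpha-primase, which starts each new strand, all 4 subunits had fold changes below 0 and none passed. Prim1, the catalytic primase subunit, had 14.8, 10.2 and 12.0 TPM in siNC and 10.3, 8.95 and 7.38 TPM in siPkm2. The groups overlapped only through the replicate 2 control, and the log2 fold change was -0.48 ± 0.25 (SE, edgeR adjusted p = 0.383) without and -0.46 ± 0.17 (edgeR adjusted p = 0.112) with the block. Pola1, the catalytic polymerase subunit, had a log2 fold change of -0.41, the accessory subunit Pola2 of -0.06 and the large primase subunit Prim2 of -0.08.

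Polymerase delta had 1 subunit that fell with the block. Pold2, the small subunit that joins the catalytic subunit to the others (chr11:5872180-5878292, minus strand), had 61.5, 31.2 and 40.0 TPM in siNC and 27.8, 27.8 and 28.2 TPM in siPkm2. The siPkm2 libraries were nearly equal and all below the lowest siNC library, while siNC replicate 1 was far above its own group. On counts the log2 fold change was -0.47 ± 0.21 (SE, edgeR adjusted p = 0.303), and with the block -0.45 ± 0.12 (edgeR adjusted p = 0.0469). Leaving out siNC replicate 1 gave -0.27 without the block. On the TPM scale the log2 ratio of the group means was larger in size, -0.66. Pold3, a subunit that binds the clamp, had 14.0, 12.6 and 13.2 TPM in siNC and 17.2, 14.7 and 18.3 TPM in siPkm2. All siPkm2 libraries were above all siNC libraries in TPM but not in CPM, and the log2 fold change of 0.25 did not pass (edgeR adjusted p = 0.485, and 0.108 with the block). The catalytic subunit Pold1 and the small subunit Pold4 had log2 fold changes of -0.17 and -0.21. For Pold4, siNC replicate 2 with 133 TPM stood above the other 5 libraries, which lay between 64.3 and 87.1 TPM, and without it the log2 fold change was 0.14. Another gene, AC109138.7, shares 24.6% of the exonic bases of Pold4 on the same strand, so reads between them could be divided differently.

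In polymerase epsilon 1 subunit rose and 1 fell with the block. Pole3, a small histone-fold subunit that also serves in chromatin remodelling (chr4:62522649-62525068, minus strand), had 46.4, 29.8 and 44.7 TPM in siNC and 71.2, 52.6 and 64.6 TPM in siPkm2. Every siPkm2 library was above every siNC library. Without the block the log2 fold change was 0.69 ± 0.27 (SE, edgeR adjusted p = 0.261), and with it 0.72 ± 0.10 (edgeR adjusted p = 0.0141), with pair ratios of 0.65, 0.91 and 0.60 on the log2 scale. Pole, the catalytic subunit (chr5:110286306-110337474, plus strand), had estimated counts of 611, 457 and 434 in siNC and 359, 394 and 249 in siPkm2. The groups were apart in counts but overlapped in TPM, where siPkm2 replicate 2 had 7.24 and the siNC libraries 7.69, 6.67 and 6.37. Its log2 fold change on counts was -0.51 ± 0.21 (SE, edgeR adjusted p = 0.283), and -0.52 ± 0.13 with the block (edgeR adjusted p = 0.0415). Pole4, the histone-fold partner of Pole3, did not follow it, with a log2 fold change of -0.11 on counts and a log2 ratio of mean TPM of -0.33. Pole2, the B subunit, had a log2 fold change of 0.01.

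**Figure D3:**
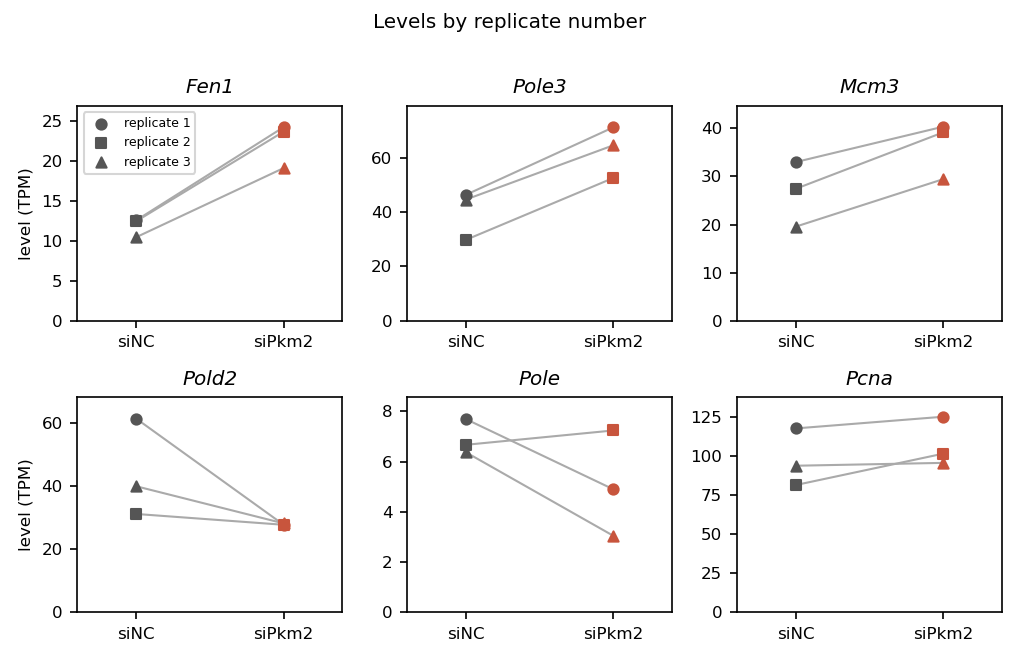
Level in TPM of the 5 genes that passed with the replicate block and of Pcna, with lines joining libraries of the same replicate number. All lines rose for Fen1, Pole3 and Mcm3 and all fell for Pold2, while the replicate 2 line of Pole went up in TPM although its CPM went down.

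With all 6 libraries, no gene of the clamp or its loader passed with or without the block. Pcna, which encircles DNA behind the fork (chr2:132249162-132253314, minus strand), had 118, 81.6 and 94.0 TPM in siNC and 125, 102 and 95.8 TPM in siPkm2. It was slightly higher at each number with overlapping groups, and the log2 fold change was 0.16 ± 0.23 (SE, edgeR adjusted p = 0.772), or 0.18 ± 0.09 with the block (edgeR adjusted p = 0.209). The 95% interval, from -0.39 to 0.72 without the block, left out a 2-fold change.

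Among the 5 subunits of the clamp loader the median log2 fold change was -0.06, and the values ran from -0.52 (Rfc4) to 0.23 (Rfc2). Rfc4 had 18.0, 13.6 and 9.72 TPM in siNC and 11.7, 9.48 and 6.85 TPM in siPkm2. It was lower at each number, while the range within each group was wider than the difference of the means. The log2 fold change of -0.52 ± 0.35 (SE) had an edgeR adjusted p of 0.497, or 0.0697 with the block, and without siNC replicate 1 the value was -0.18. With pair 2 left out of the block fit it was -0.55 (edgeR adjusted p = 0.0481), and 12.7% of the exonic bases of Rfc4 overlap Eif4a2 on the opposite strand. Rfc2, the highest of the loader genes, had 34.6, 31.0 and 41.2 TPM in siNC and 44.7, 38.3 and 40.0 TPM in siPkm2, with overlapping groups, a log2 fold change of 0.23 (edgeR adjusted p = 0.584, 0.171 with the block) and 15.1% of its exonic bases shared with Lat2. The large subunit Rfc1 and the small subunit Rfc3 had log2 fold changes of -0.06 and 0.04. For Rfc5 the scales differed, with a log2 fold change of -0.26 on counts and a log2 ratio of mean TPM of 0.01.

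RPA, the single-strand binding trimer, had no subunit that passed. Rpa1, its largest subunit, had 70.0, 71.4 and 70.8 TPM in siNC and 64.1, 64.7 and 53.2 TPM in siPkm2. In TPM the siPkm2 libraries were all below the tightly grouped siNC libraries, whereas in CPM the groups overlapped, and the log2 fold change was -0.17 ± 0.13 (SE, edgeR adjusted p = 0.564, 0.146 with the block). Rpa3, the smallest subunit, had 61.8, 40.3 and 49.1 TPM in siNC and 63.7, 54.1 and 58.0 TPM in siPkm2, with a log2 fold change of 0.21 (edgeR adjusted p = 0.735, 0.246 with the block). Rpa2 lay between them with a log2 fold change of -0.09.

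Of the genes that finish Okazaki fragments, Fen1 had the largest difference of all 34. Fen1, the nuclease that cuts displaced flaps (chr19:10199132-10204169, minus strand), had 12.6, 12.5 and 10.5 TPM in siNC and 24.2, 23.7 and 19.1 TPM in siPkm2. Every siPkm2 library was well above every siNC library. A log2 fold change of 0.94 ± 0.18 (SE, 95% interval 0.50 to 1.37, edgeR adjusted p = 0.117) was fitted without the block, and one of 0.93 ± 0.09 (95% interval 0.70 to 1.17, edgeR adjusted p = 0.0109) with it. Pair ratios of 0.93, 0.96 and 0.90 on the log2 scale were close to each other, and leaving out single libraries moved the value between 0.83 and 1.04. The antisense gene Gm10143 covers 78.8% of the exonic bases of Fen1, and without knowing whether reads were counted by strand, reads of the pair cannot be told apart. Gm10143 itself was given between 9.34 and 22.2 estimated counts in each library, against 306 to 767 for Fen1. Tmem258, on the same strand as Gm10143, shares 5.37% of the exonic bases of Fen1 and had a log2 fold change of -0.39.

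The other maturation genes did not pass. Rnaseh2b, a subunit of the enzyme that removes ribonucleotides from DNA, had 16.0, 7.50 and 12.2 TPM in siNC and 10.5, 7.82 and 8.36 TPM in siPkm2. It was lower in pairs 1 and 3 and about equal in pair 2, with a log2 fold change of -0.42 (edgeR adjusted p = 0.580, 0.210 with the block) that was -0.06 without siNC replicate 1. The catalytic subunit Rnaseh2a had a log2 fold change of 0.10 and Rnaseh1, which degrades RNA in hybrids, of 0.27. The log2 fold change of Dna2, which trims long flaps, was 0.31 with a 95% interval from -0.70 to 1.33 without the block and from -0.28 to 0.89 with it. Lig1, the ligase that seals the nicks, had 22.0, 17.3 and 18.3 TPM in siNC and 21.7, 21.3 and 14.9 TPM in siPkm2, with no net difference. The third RNase H2 subunit, Rnaseh2c, is not in the pathway column. It had 35.4, 54.7 and 30.5 TPM in siNC and 48.6, 72.3 and 48.3 TPM in siPkm2. It passed with the block (log2 fold change 0.55, edgeR adjusted p = 0.025) but not without it (0.53, edgeR adjusted p = 0.342). With the block 12.3% of all genes rose. Kat5, on the opposite strand, shares 24.8% of the exonic bases of Rnaseh2c. The pathway column also lists Ssbp1, the single-strand binding protein of mitochondrial DNA. Its level was 70.3, 50.2 and 57.4 TPM in siNC and 56.8, 49.4 and 53.9 TPM in siPkm2, with overlapping groups and a log2 fold change of -0.17 (edgeR adjusted p = 0.721, 0.385 with the block).

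**Figure D4:**
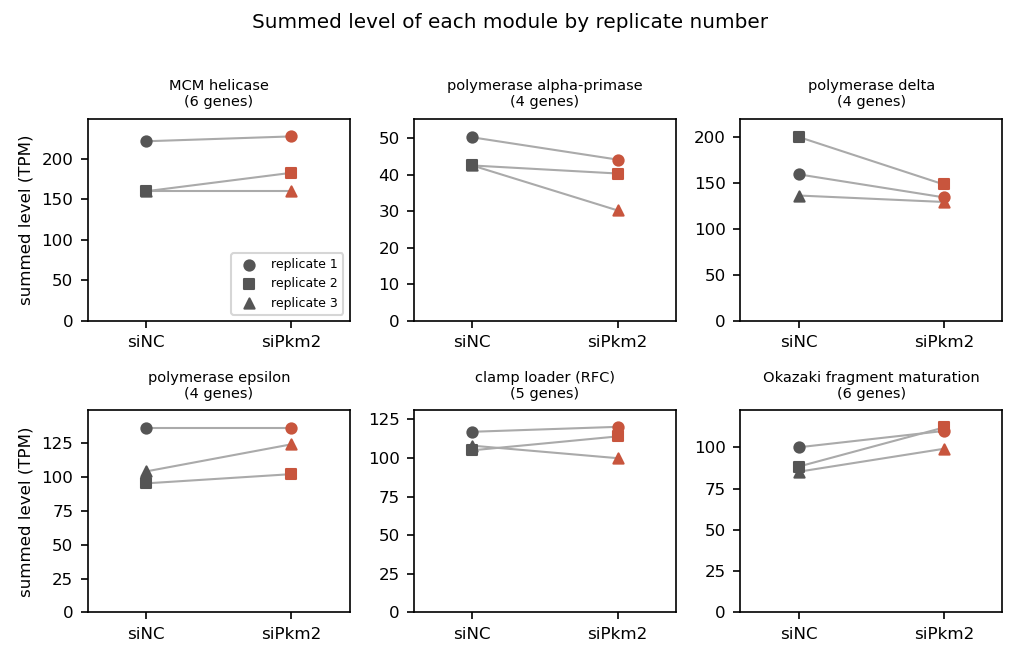
Summed level in TPM of the 6 larger modules of the replication machinery, with lines joining libraries of the same replicate number. The polymerase alpha-primase and polymerase delta sums were lower in siPkm2 at each number, the Okazaki maturation sum was higher at each number, and the other sums had no common direction over the 3 numbers.

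Summing the members put the modules side by side. Polymerase alpha-primase summed to 50.2, 42.5 and 42.5 TPM in siNC and 44.1, 40.3 and 30.2 TPM in siPkm2. Polymerase delta summed to 159, 199.6 and 136 TPM in siNC and 134, 148 and 129 TPM in siPkm2. Both were lower at each number with overlapping groups, and Pold4 and Pold2 were the largest members of the polymerase delta sum. Okazaki maturation summed to 100, 88.3 and 85.2 TPM in siNC and 109.9, 112 and 99.1 TPM in siPkm2. It was higher at each number, with siPkm2 replicate 3 just below siNC replicate 1. Without Fen1 the other 5 genes summed to 87.4, 75.8 and 74.7 TPM in siNC and 85.7, 88.6 and 80.0 TPM in siPkm2, so that pair 1 was then lower in siPkm2. Polymerase epsilon summed to 136, 95.2 and 104 TPM in siNC and 136, 102 and 124 TPM in siPkm2, and the clamp loader to 117, 105 and 108 TPM and 120.2, 114 and 99.9 TPM. These sums are descriptions with no test.

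Outside the pathway column, 69 accessory replication genes in 7 lists had a median log2 fold change of -0.04, with 34 higher and 35 lower. None passed without the block (0% of all genes), and 7 did at an unadjusted edgeR p under 0.05 (10.1% against 17.6% of all genes). DESeq2 called Top1mt alone, against 5.38% of all genes. With the block 3 rose and 7 fell, 14.5% of the 69 against 23.1% of all genes, and with pair 2 left out 20 passed, including the same 10, against 39.1% of all genes in that fit, while with pair 1 or pair 3 left out none did.

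At origins, 1 of 10 licensing genes and 1 of 14 firing genes passed with the block, both downward, against 10.8% of all genes that fell. Orc3, a subunit of the origin recognition complex, had 45.4, 44.2 and 42.9 TPM in siNC and 35.2, 35.3 and 33.8 TPM in siPkm2. The groups were far apart for their spread, with a log2 fold change of -0.31 (edgeR adjusted p = 0.0429 with the block, 0.242 without). Gins1, part of the GINS complex that activates the MCM ring, had 6.47, 4.20 and 5.12 TPM in siNC and 3.32, 2.51 and 1.66 TPM in siPkm2. Its estimated counts were low, 94, 53 and 61 in siNC and 39, 33 and 20 in siPkm2. All siPkm2 libraries were below all siNC libraries, and the log2 fold change of -1.10 with the block (edgeR adjusted p = 0.0471, 0.235 without) was the largest in size among the accessory genes. The other GINS subunits, Gins2, Gins3 and Gins4, had log2 fold changes of 0.07, 0.47 and 0.35 and did not pass. For Gins2 the log2 ratio of mean TPM was -0.12, and Gse1 on the opposite strand shares 67.3% of its exonic bases.

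None of the 13 genes for fork protection and alternative clamp loaders passed with the block, and 2 of 4 topoisomerases fell, against 10.8% of all genes that fell. Top2a, the topoisomerase of dividing cells that untangles sister chromosomes, had 86.0, 63.5 and 50.9 TPM in siNC and 53.3, 51.2 and 36.6 TPM in siPkm2. Top2b, its counterpart in both dividing and resting cells, had 45.1, 33.7 and 39.9 TPM in siNC and 31.6, 28.3 and 28.8 TPM in siPkm2. Both were lower at each number, with log2 fold changes of -0.38 (edgeR adjusted p = 0.0460) and -0.32 (edgeR adjusted p = 0.0493) with the block, and with edgeR adjusted p = 0.514 and 0.432 without it. Leaving out siNC replicate 1 moved the value without the block from -0.40 to -0.10 for Top2a and from -0.34 to -0.20 for Top2b. Rarb, on the opposite strand, shares 12.3% of the exonic bases of Top2b. Top1 and Top3a had log2 fold changes of 0.17 and -0.15.

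Nucleotide supply had 1 gene up and 1 down among 11 with the block, against 23.1% of all genes called. Samhd1, which degrades deoxynucleotides, had 79.6, 117 and 67.0 TPM in siNC and 98.6, 167 and 91.6 TPM in siPkm2. It was higher at each number with overlapping groups, and its log2 fold change was 0.48 (edgeR adjusted p = 0.0238 with the block, 0.339 without), falling to 0.27 in the fit without the block when siPkm2 replicate 2 was left out. Rrm2b, the p53-induced small subunit of ribonucleotide reductase, had 6.34, 4.59 and 5.20 TPM in siNC and 3.97, 3.41 and 3.09 TPM in siPkm2. Its libraries did not overlap, with a log2 fold change of -0.68 (edgeR adjusted p = 0.0268 with the block, 0.277 without). The S phase subunits Rrm1 and Rrm2 had log2 fold changes of -0.30 and -0.24 and, among the fits run, passed only with pair 2 left out of the block fit.

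In the chromatin list 1 of 9 genes fell with the block, against 10.8% of all genes. Uhrf1, which recruits Dnmt1 to newly copied DNA, had 23.0, 22.8 and 16.5 TPM in siNC and 17.6, 16.4 and 11.2 TPM in siPkm2. It was lower at each number by similar ratios, -0.36, -0.39 and -0.45 on the log2 scale, with overlapping groups and a log2 fold change of -0.40 (edgeR adjusted p = 0.0278 with the block, 0.463 without). In the fit without the block it was -0.23 without siNC replicate 1 and -0.21 without siPkm2 replicate 3. Dnmt1 itself had a log2 fold change of 0.03.

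Mitochondrial DNA replication had 3 of 8 genes that passed with the block, 2 upward and 1 downward, against 12.3% and 10.8% of all genes. Top1mt, the topoisomerase of mitochondria, had 5.98, 5.84 and 4.95 TPM in siNC and 10.2, 9.74 and 8.76 TPM in siPkm2. Every siPkm2 library was above every siNC library, with a log2 fold change of 0.87 (edgeR adjusted p = 0.0182 with the block, 0.146 without). Polg, the catalytic subunit of the mitochondrial polymerase, had 25.2, 31.3 and 27.5 TPM in siNC and 32.4, 33.0 and 38.0 TPM in siPkm2. Its groups were apart by a small margin, with a log2 fold change of 0.44 (edgeR adjusted p = 0.0309 with the block, 0.169 without). Primpol, a primase and polymerase that restarts stalled forks in the nucleus and in mitochondria, had 10.0, 11.3 and 7.05 TPM in siNC and 7.57, 5.57 and 5.56 TPM in siPkm2. Its groups overlapped in TPM but not in CPM, with a log2 fold change of -0.54 (edgeR adjusted p = 0.0367 with the block, 0.246 without), and 16.7% of its exonic bases overlap Cenpu.

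**Figure D5:**
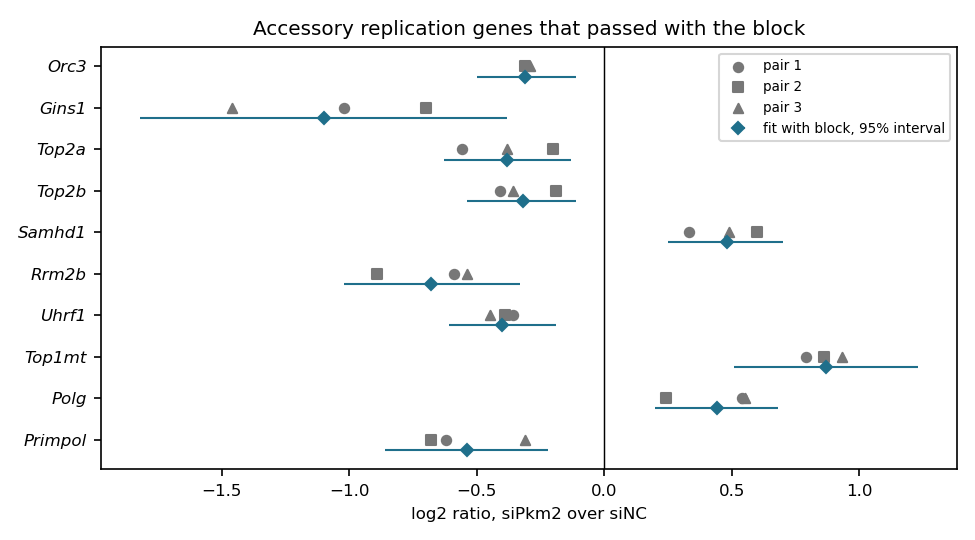
Log2 ratio of siPkm2 over siNC for the 10 accessory replication genes that passed with the replicate block, with 1 grey point per pair of libraries and the fitted value with its 95% interval in blue. Gins1 was the lowest at -1.10 and Top1mt the highest at 0.87.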

How the data were processed

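Primary mouse chondrocytes, 3 siNC and 3 siPkm2 libraries, were sequenced and the authors deposited estimated counts, not normalized and in part fractional, and TPM per gene and library. The deposited table is named for DESeq2 and also holds the authors' fold change (a ratio), log2 fold change and p-value columns, which were not used. The processing notes name mm9 and edgeR. The aligner, counter and strand setting are not given in the sources used here.

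For testing, the estimated counts were made whole by rounding and passed to edgeR 4.0.16 (quasi-likelihood test, TMM, filterByExpr), with Benjamini-Hochberg adjustment over 15269 genes and a threshold of 0.05. The labels give both groups the numbers 1 to 3. Over all genes, deviations from group means correlated at 0.66, 0.76 and 0.65 for equal numbers and at 0.16 or less otherwise. The low values are in part forced, because deviations within a group cancel for each gene. From the positive values the numbers were taken as pairs, and the fit with the replicate block is given beside the one without. DESeq2 1.42.0 and limma 3.58.1 on log2(TPM + 1) were alternatives. Pair ratios used CPM with a prior count of 2. The code was tested on simulated data. No 2 libraries of a group agreed within sampling noise.

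Gene positions came from GENCODE M21 on GRCm38 by Ensembl identifier (94% matched). The pathway and the gene lists were chosen with earlier results of these data known, although the pathway rule itself uses no measured value. All members, Mcm2 to Mcm7, Pcna and Pkm were named. In the other roles, full values were given for the genes with the lowest p with the block in each direction, and for at most 3 accessory genes per list that passed with the block.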

Additional observations from a re-analysis of the deposited data

How the results depend on the processing

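The number of genes called moved with the treatment of the pairs. Without a block edgeR called 0 genes in all, 0 replication genes and 0 accessory genes. With the replicate block, in which the numbers pair the libraries, it called 3524, 5 and 10, and 890 of the 3524 also changed by more than 2-fold. DESeq2 called 829, 1 and 1. Over all genes, 3 were called with at least 10 counts in every library, 9 with no filter on low counts, 1 by limma on log2(TPM + 1) and 3 with upper-quartile scaling. With pair 2 left out of the block fit it called 5941, 9 and 20, and with pair 1 or 3 left out none. With single libraries left out of the fit without the block, the calls ranged from 0 to 105 over all genes, the highest without siNC replicate 2, and stayed at 0 for both lists. The log2 fold change of Pkm, -2.51 with an edgeR adjusted p of 0.0738, had an adjusted p of 0.00932 at -2.53 with the block and of 4.82e-11 at -2.50 in DESeq2, of 9.69e-05 at -2.63 with the block and pair 2 left out, and the value ranged from -2.80 to -2.34 with single libraries left out (edgeR adjusted p from 0.0495 to 0.386). The median log2 fold change of the 34 genes ranged from -0.13 to 0.18 and the number of lower genes from 10 to 25. The log2 fold change changed sign for Mcm7 with the block (0.02), for Lig1 with the block (0.00) and in DESeq2 (0.01), for Pole2 (-0.05) and Rfc3 (-0.03) with upper-quartile scaling, and for Rfc5 by limma on TPM (0.00). In the block fit it changed sign for Mcm7 (0.16), Rpa2 (0.02) and Lig1 (0.09) without pair 1, for Pold4 (0.03), Pole2 (-0.03), Rfc3 (-0.01) and Rnaseh2a (-0.03) without pair 2, and for Mcm7 (0.03), Pola2 (0.09), Pole2 (-0.03) and Lig1 (0.09) without pair 3. With single libraries left out, 18 genes changed sign, with ranges of -0.07 to 0.23 (Mcm4), -0.15 to 0.44 (Mcm5), -0.40 to 0.21 (Mcm6), -0.20 to 0.25 (Mcm7), -0.71 to 0.00 (Pola1), -0.19 to 0.12 (Pola2), -0.26 to 0.10 (Prim2), -0.37 to 0.14 (Pold4), -0.12 to 0.32 (Pole2), -0.36 to 0.10 (Pole4), -0.26 to 0.16 (Rpa2), about 0 to 0.41 (Pcna), -0.15 to 0.03 (Rfc1), -0.05 to 0.12 (Rfc3), -0.06 to 0.66 (Dna2), -0.11 to 0.19 (Lig1), about 0 to 0.20 (Rnaseh2a) and -0.31 to 0.04 (Ssbp1). The block fits with a pair left out were added after the data were seen. The cause of these shifts was not tested. Among the 34 genes Dna2 had the lowest depth, with as few as 44 estimated counts in a library. Some accessory genes had fewer, with as few as 20 for Gins1 and 17 for Dscc1.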
